A study of Mus musculus with 3 samples.

Results

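The genes described here encode the cytosolic and endoplasmic reticulum enzymes of fatty acid synthesis and desaturation. The members are *Acly*, *Acss2*, *Acaca*, *Fasn*, *Elovl6*, *Elovl5*, *Scd1*, *Scd2*, *Fads1* and *Fads2*, chosen by name as the enzymes of the pathway. A probe belonged to a member when the RefSeq accession printed for it on the array mapped to that gene symbol, which gave 18 probes for the 10 members among the 22911 genes named on the array. Gene expression was measured in 3 murine cell lines of BALB/c, female origin. Colon26 is a colon adenocarcinoma line, and LuM1 and NM11 are sublines of it with high and low metastatic ability in the mouse. All lines were kept in RPMI1640 medium with 10% FBS and antibiotics and had no other treatment. After 3 days of culture, Cy3-labelled cRNA made from 0.1 µg of total RNA was hybridized to 1 single-colour array per line.

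Fatty acid synthesis starts from acetyl-CoA in the cytosol. ATP citrate lyase (*Acly*) makes it from exported citrate and acetyl-CoA synthetase (*Acss2*) makes it from acetate. Acetyl-CoA carboxylase (*Acaca*) turns acetyl-CoA into malonyl-CoA, and fatty acid synthase (*Fasn*) builds palmitate from both. Elongases of the endoplasmic reticulum then lengthen the chain, and desaturases insert double bonds, with stearoyl-CoA desaturases making oleate-type monounsaturated fatty acids and the *Fads* enzymes making polyunsaturated ones. Many of these genes are known targets of the sterol regulatory element binding proteins (SREBPs) and of the liver X receptors (LXRs), and tumors often make fatty acids in this way for membranes.

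Each value below is a scaled signal. This is the brightness of a probe after background subtraction by the scanner software, multiplied by 1 factor per array so that the 75th percentile of all arrays became 585.1. The error given with ± is that of the scanner software for the spot, about 10% of a bright signal. Where a log2 ratio between arrays exceeded 1.96 times its own scanner error (a limit of about 0.40 for bright probes), it is called beyond the scanner error. This limit covers the reading of the spots only. With 1 array per line there was no replicate and no test of a difference between lines, and precision is limited by how few arrays there were. A gene is represented by its brightest probe, and its other probes are given beside it. A probe's signal depends on its sequence as well as on its mRNA, so signals are compared between lines for the same probe only.

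Of the 56605 distinct probes, between 49.9% (Colon26) and 53.8% (LuM1) were flagged as well above background by the scanner software, and none as saturated. All 10 members were well above background on every array with their brightest probe. Of 12 colon epithelium markers, 5 to 6 were well above background on an array, and their signals summed to 1459 in Colon26, 585.5 in LuM1 and 558.1 in NM11 cells. Such a sum adds probes of unlike brightness and follows the brightest, here *Krt20* (651.4, 54.5 and 157.3) and *Cdx2* (443.0, 231.7 and 167.2), whereas *Krt8* was highest in LuM1 cells (28.9, 107.6 and 37.1). The markers *Cdh1*, *Krt18*, *Krt19*, *Vil1*, *Cdx1* and *Cldn3* were well above background on none. *Epcam* was well above background in LuM1 cells only (28.0). *Lgals4* (197.9, 71.7 and 68.2) and *Cldn7* (91.4, 58.1 and 93.6) were well above background on all arrays. Of 10 fibroblast and mesenchymal markers, 7 to 9 were, with summed signals between 135632 and 219644, and those that differed did so in both directions. *Vim*, the brightest (102137, 80065 and 98371), and *Pdgfrb* (993.4, 965.7 and 947.4) did not differ beyond the scanner error in any comparison. *Col1a2* had signals of 59896 in Colon26, 49.6 in LuM1 and 85275 in NM11 cells, and *Pdgfra* had 218.0, 3965 and 1286. *Dcn* and *Thy1* had no signal well above background on the Colon26 array. They were at least 1041-fold and 741-fold higher in LuM1 cells and at least 363-fold and 584-fold higher in NM11 cells. The 8 adipocyte markers summed to 385.9 in Colon26, 9152 in LuM1 and 1004 in NM11 cells, of which *Fabp4*, a fatty acid binding protein of fat cells and macrophages, made up 72.1, 8787 and 677.9, whereas *Adipoq*, *Plin1* and *Cidec* were well above background on none. The 10 haematopoietic markers summed to 7705, 17625 and 6817 in the same order, with *Ptprc*, *Adgre1* and *Spi1* well above background on none. The part of these markers in the results below was not tested.

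The promoters of 4 members are shown because these members stand for some of the patterns in the data. *Fasn* and *Acly* had their highest signal in NM11 cells, *Acss2* had its lowest signal in Colon26 cells and *Fads2* had its lowest signal in LuM1 cells. The patterns of *Elovl6* (highest in LuM1 cells) and *Fads1* (highest in Colon26 cells) are not among those shown. RefSeq promoters of the mouse build GRCm38.p6 were at hand for 7 of the 10 members. Shown are the 250 bases before the start site, 5′ to 3′ on the strand of the gene, at chr11:120824548-120824797 (minus strand) for *Fasn*, chr11:100528001-100528250 (minus strand) for *Acly*, chr2:155517793-155518042 (plus strand) for *Acss2* and chr19:10101504-10101753 (minus strand) for *Fads2*. Capitals mark CCAAT and GGGCGG and their reverse complements.
Fasn: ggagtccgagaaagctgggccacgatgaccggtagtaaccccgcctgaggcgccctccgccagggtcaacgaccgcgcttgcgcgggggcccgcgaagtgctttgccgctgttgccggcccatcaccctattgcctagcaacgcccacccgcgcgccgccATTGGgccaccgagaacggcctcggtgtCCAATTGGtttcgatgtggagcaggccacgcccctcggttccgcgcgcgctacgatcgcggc
Acly: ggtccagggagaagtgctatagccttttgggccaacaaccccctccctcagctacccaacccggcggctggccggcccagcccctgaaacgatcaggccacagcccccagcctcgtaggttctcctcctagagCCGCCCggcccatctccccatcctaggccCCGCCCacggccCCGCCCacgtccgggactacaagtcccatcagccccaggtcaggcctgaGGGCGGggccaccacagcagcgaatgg
Acss2: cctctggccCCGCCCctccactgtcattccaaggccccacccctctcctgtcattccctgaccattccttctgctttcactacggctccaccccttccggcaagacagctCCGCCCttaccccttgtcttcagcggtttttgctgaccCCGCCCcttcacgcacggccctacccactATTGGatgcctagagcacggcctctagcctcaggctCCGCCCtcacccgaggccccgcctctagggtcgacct
Fads2: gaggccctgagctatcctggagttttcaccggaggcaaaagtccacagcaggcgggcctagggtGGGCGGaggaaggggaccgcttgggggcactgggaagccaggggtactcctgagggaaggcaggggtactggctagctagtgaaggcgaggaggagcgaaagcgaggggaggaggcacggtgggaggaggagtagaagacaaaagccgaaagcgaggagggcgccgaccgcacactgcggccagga

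The motifs searched on both strands of these windows were CCAAT (the CCAAT box bound by NF-Y), GGGCGG (the GC box bound by Sp1), CACGTG (an E-box) and SRE-1, a classical sterol regulatory element, with any base allowed at its sixth position. The *Fasn* window held CCAAT letters that start 90, 62 and 59 bases before the start site, of which the last pair overlaps. The *Acss2* window held CCAAT letters 73 bases before the start site and GC boxes at 241, 140, 102 and 37 bases. The *Acly* window held 4 GC boxes, at 117, 88, 76 and 27 bases, and the *Fads2* window held 1, at 186 bases. Of the other members with a promoter, *Elovl5* held CCAAT letters at 71 and 17 bases and an E-box at 161 bases. The *Elovl6* and *Acaca* windows held none of the motifs. The *Acaca* window may lie at an alternative start site, so it may not describe the main *Acaca* promoter. The SRE-1 letters were in none of the 7 windows. Among 32851 RefSeq promoters of the same length, 33.8% held CCAAT letters, 32.7% a GC box, 6.02% the E-box and 0.192% the SRE-1 letters, and a match is a description of the letters and not a site in use.

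The enzymes that make cytosolic acetyl-CoA differed between the lines in different ways. *Acss2* was read by 2 probes. Its brightest probe (A_66_P108725) had a scaled signal of 238.5 ± 24.7 in Colon26, 526.9 ± 52.9 in LuM1 and 411.2 ± 41.4 in NM11 cells. The *Acss2* mRNA level was therefore lowest in Colon26 cells, with LuM1 cells 2.21-fold above them (log2 ratio 1.14) and NM11 cells 1.72-fold above them (0.79). LuM1 and NM11 cells did not differ beyond the scanner error (0.36). The other *Acss2* probe (A_55_P1988795), with signals of 47.3, 74.8 and 85.2, gave log2 ratios of 0.66 and 0.85 over Colon26, so that both probes placed Colon26 lowest.

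*Acly* was also read by 2 probes. Its brightest probe (A_55_P2025954) had signals of 13384 in Colon26, 12828 in LuM1 and 19398 in NM11 cells. Here NM11 cells stood above the other lines, 1.45-fold over Colon26 cells (log2 ratio 0.54), and LuM1 cells were 1.51-fold below NM11 cells (-0.60). Colon26 and LuM1 cells did not differ beyond the scanner error (-0.06). The dim *Acly* probe (A_55_P2082914), with signals of 45.7, 40.1 and 89.6, showed the same order with larger ratios of 0.97 for NM11 over Colon26 and -1.16 for LuM1 over NM11.

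The next step of the pathway was lowest in LuM1 cells. *Acaca*, the carboxylase that makes malonyl-CoA and the committed enzyme of the pathway, was read by 4 probes. Its brightest probe (A_55_P2019058) had signals of 6914 ± 691 in Colon26, 3232 ± 323 in LuM1 and 7603 ± 760 in NM11 cells. The *Acaca* mRNA level in LuM1 cells was 2.14-fold lower than in Colon26 cells (log2 ratio -1.10) and 2.35-fold lower than in NM11 cells (-1.23), while Colon26 and NM11 cells did not differ beyond the scanner error (0.14). The other *Acaca* probes gave signals of 622.3, 277.7 and 652.8 (A_52_P318040), 57.9, 23.9 and 66.5 (A_55_P2084703), and 89.6, 30.5 and 77.9 (A_55_P2121392) in the order Colon26, LuM1 and NM11. All 4 probes were therefore lower in LuM1 cells than in either of the other lines beyond the scanner error, with log2 ratios between -1.56 and -1.10 over Colon26 and between -1.48 and -1.23 over NM11. None of the 4 differed between NM11 and Colon26 cells beyond that error.

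*Fasn*, the synthase that assembles palmitate, was read by 1 probe (A_51_P321126). Its signal was 21852 ± 2185 in Colon26, 18203 ± 1820 in LuM1 and 31378 ± 3138 in NM11 cells. The *Fasn* mRNA level was highest in NM11 cells, 1.44-fold over Colon26 cells (log2 ratio 0.52), and LuM1 cells were 1.72-fold below NM11 cells (-0.79). LuM1 and Colon26 cells did not differ beyond the scanner error (-0.26). *Fasn* and *Acly* thus had the same order of the lines, with NM11 above a pair that did not differ.

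**Figure D1:**
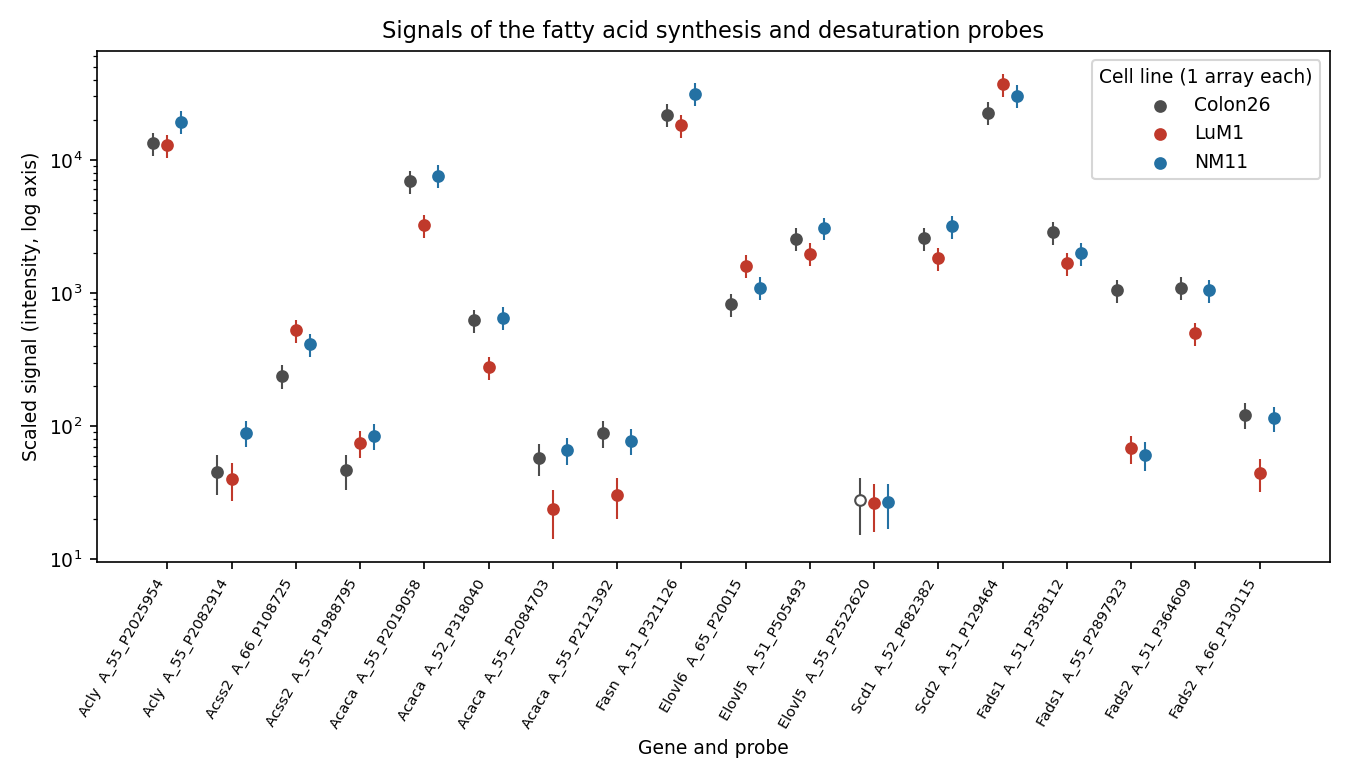
Scaled signal (log axis) of each of the 18 probes of the members in Colon26 (grey), LuM1 (red) and NM11 cells (blue), 1 array each, with bars of 1.96 times the scanner error and an open circle where a probe was not well above background. LuM1 is lowest at all 4 *Acaca* probes and both *Fads2* probes, Colon26 is lowest at both *Acss2* probes, and NM11 is highest at *Fasn* and both *Acly* probes.

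Of the elongases, *Elovl6* was highest in LuM1 cells and *Elovl5* was lower in LuM1 than in NM11 cells. *Elovl6*, which lengthens palmitate to stearate, was read by 1 probe (A_65_P20015) with signals of 824.3 ± 82.7 in Colon26, 1600.5 ± 160 in LuM1 and 1099.1 ± 110 in NM11 cells. The *Elovl6* mRNA level was highest in LuM1 cells, 1.94-fold over Colon26 cells (log2 ratio 0.96) and 1.46-fold over NM11 cells (0.54). NM11 cells were 1.33-fold over Colon26 cells (0.42), a direction that turned to -0.07 when the arrays were scaled to the housekeeping gene *Hprt*. *Elovl5*, which lengthens polyunsaturated chains, had signals of 2564 in Colon26, 1976.8 in LuM1 and 3086.8 in NM11 cells with its brightest probe (A_51_P505493). LuM1 cells were 1.56-fold below NM11 cells for *Elovl5* (-0.64), and Colon26 cells lay between and did not differ from either beyond the scanner error (-0.38 for LuM1 over Colon26 and 0.27 for NM11 over Colon26). The dim *Elovl5* probe (A_55_P2522620) was near the background, with signals of 27.98, 26.4 and 26.9, and was not well above background in Colon26 cells.

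Of the stearoyl-CoA desaturases, *Scd1* was lowest in LuM1 cells and *Scd2* was higher in LuM1 than in parental cells. *Scd1* was read by 1 probe (A_52_P682382) with signals of 2588.5 in Colon26, 1823.6 in LuM1 and 3188.6 in NM11 cells. The *Scd1* mRNA level in LuM1 cells was 1.42-fold below that in Colon26 cells (log2 ratio -0.51) and 1.75-fold below that in NM11 cells (-0.81), and NM11 and Colon26 cells did not differ beyond the scanner error (0.30). *Scd2* was read by 1 probe (A_51_P129464) with signals of 22637 ± 2264 in Colon26, 36894 ± 3689 in LuM1 and 30391 ± 3039 in NM11 cells. The *Scd2* mRNA level in LuM1 cells was 1.63-fold above that in Colon26 cells (0.70), and LuM1 and NM11 cells did not differ beyond the scanner error (0.28). NM11 cells were 1.34-fold over Colon26 cells for *Scd2* (0.42), which turned to -0.06 when scaled to *Hprt*. *Scd1* to *Scd4* lie side by side on mouse chromosome 19 and are paralogs, so how far a probe of one also reads another is uncertain.

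*Fads2* and *Fads1* encode the desaturases that start and continue the synthesis of polyunsaturated fatty acids. *Fads2* was read by 2 probes. The brightest (A_51_P364609) had signals of 1099.5 ± 110 in Colon26, 500.3 ± 50.2 in LuM1 and 1045.8 ± 105 in NM11 cells. The *Fads2* mRNA level in LuM1 cells was 2.2-fold below that in Colon26 cells (log2 ratio -1.14) and 2.09-fold below that in NM11 cells (-1.06), and NM11 and Colon26 cells did not differ beyond the scanner error (-0.07). The other *Fads2* probe (A_66_P130115), with signals of 122.4, 44.4 and 115.0, gave the same order, with log2 ratios of -1.46 over Colon26 and -1.37 over NM11.

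*Fads1* was the member whose probes differed most. Its brightest probe (A_51_P358112) had signals of 2850.4 ± 285 in Colon26, 1669.4 ± 167 in LuM1 and 2001.2 ± 200 in NM11 cells. The *Fads1* mRNA level was highest in Colon26 cells, with LuM1 cells 1.71-fold below (log2 ratio -0.77) and NM11 cells 1.42-fold below (-0.51), and the sublines did not differ from each other beyond the scanner error (-0.26). The other *Fads1* probe (A_55_P2897923) had signals of 1046.2, 68.5 and 60.8, with log2 ratios of -3.93 for LuM1 over Colon26 and -4.11 for NM11 over Colon26. Its spot lay in a patch of the Colon26 array where 46 of 124 neighbouring probes (37.1%) were over 4-fold brighter than on both other arrays, against 1.81% of all probes. The same share was 0% around the brightest *Fads1* probe, 16.7% around the dim *Fads2* probe, 13.1% around the second *Acaca* probe and below 10% around all other probes of the members. The part of this patch in the ratios of the dim *Fads1* probe was not tested.

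**Figure D2:**
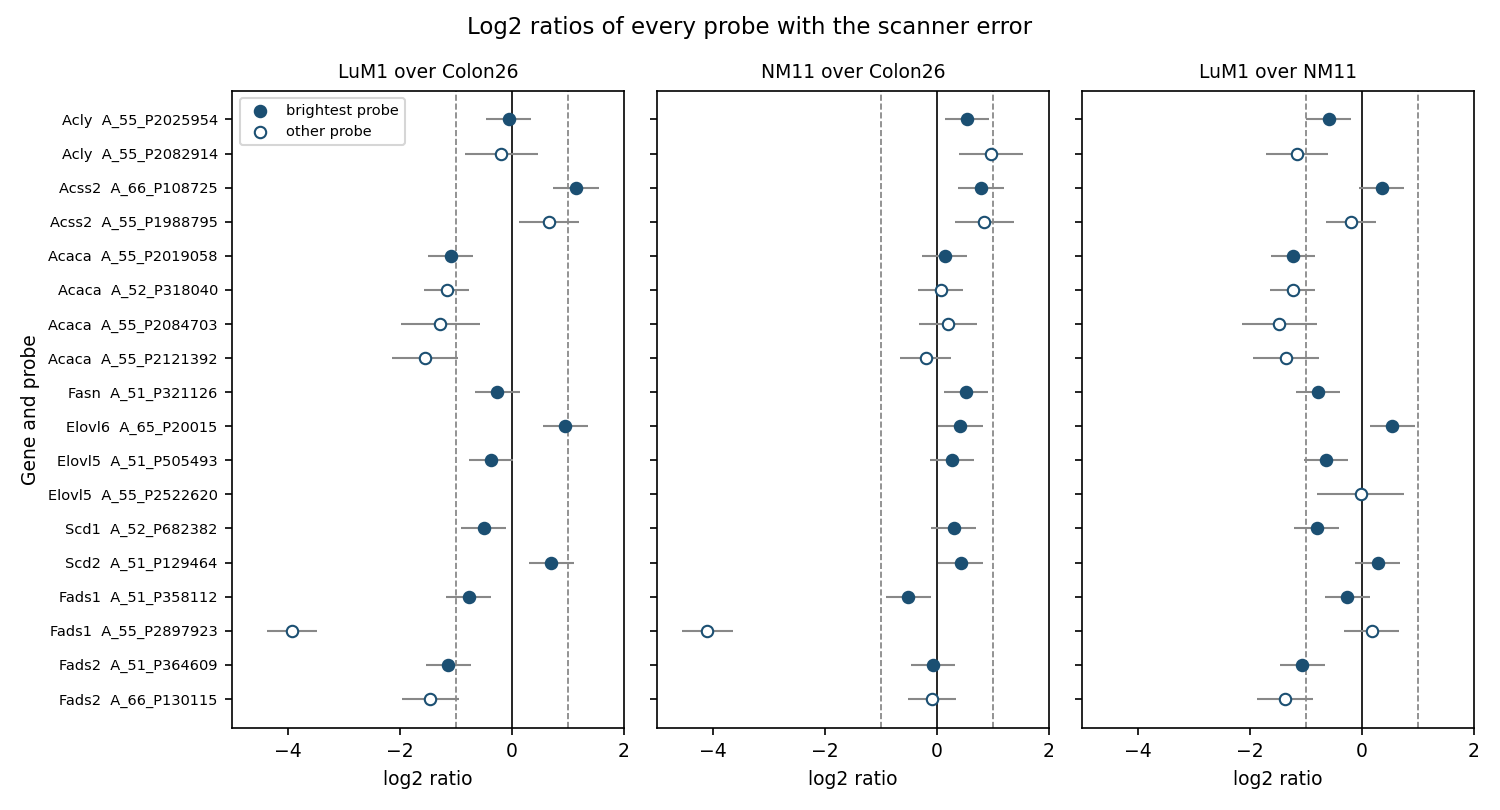
Log2 ratios of each probe of the members for LuM1 over Colon26, NM11 over Colon26 and LuM1 over NM11, with bars of 1.96 times the scanner error, filled circles for the brightest probe of a gene and dashed lines at 2-fold. All 4 *Acaca* probes and both *Fads2* probes lie left of 0 in LuM1 over Colon26 and in LuM1 over NM11, and the dim *Fads1* probe lies apart at -3.93 and -4.11 in both comparisons with Colon26. A probe with no point had no ratio.

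The comparison of LuM1 with Colon26 cells asks how the rapidly metastatic subline differs from its parental line. Of the 10 members, 1 was at least 2-fold higher in LuM1 cells (*Acss2*) and 2 were at least 2-fold lower (*Acaca* and *Fads2*), beside 13.1% and 11.8% of 14182 named genes past the same fold upward and downward. Beyond the scanner error, 3 members were higher (*Acss2*, *Elovl6* and *Scd2*), 4 were lower (*Acaca*, *Fads2*, *Fads1* and *Scd1*) and 3 were within it (*Fasn*, *Acly* and *Elovl5*), against 21.9% of all measured genes higher and 32.2% lower. The median log2 ratio of the members was -0.32, and that of all measured genes was -0.13. Ordered among the 12397 genes measured on both arrays, *Fads2* and *Acaca* had 7.37% and 8.03% of the genes below them, *Elovl6* and *Acss2* had 89.8% and 91.8% below them, and *Acly* was near the middle with 54.4%. The shares of members past 2-fold were thus near those of all genes. *Acss2* fell short of 2-fold with normexp background correction (log2 ratio 0.88) and with the mean over its probes (0.90). *Acaca* fell short with no scaling (-0.99), scaling to *Hprt* (-0.996), quantile normalization (-0.90) and the authors' processed values (-0.65). *Fads2* did with normexp (-0.99) and the authors' values (-0.69), which shifted the median of all genes by 0.45. *Scd1* came within the scanner error with quantile normalization (-0.37) and the authors' values (-0.06), and *Fads1* did with the authors' values (-0.33).

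The comparison of NM11 with Colon26 cells, which shares the Colon26 array with the one before, asks how the slowly metastatic subline differs from the parental line. No member was 2-fold higher or 2-fold lower, where 8.34% and 7.89% of 13832 genes were. Beyond the scanner error, 5 members were higher in NM11 cells (*Acss2*, *Acly*, *Fasn*, *Scd2* and *Elovl6*), and none of the 5 stayed so when scaled to *Hprt*, where *Acss2* (0.30), *Acly* (0.05) and *Fasn* (0.03) were within the error and *Scd2* and *Elovl6* turned (-0.06 and -0.07). *Fads1* was lower, and 4 members were within the error, against 19.4% of all measured genes higher and 21.8% lower. The median log2 ratio of the members was 0.36 beside -0.02 for all measured genes, and it turned to -0.13 when scaled to *Hprt*, where the median of all genes shifted by -0.49. Scaled to the E1A spike-in spots, *Fasn* (0.19), *Acly* (0.20), *Scd2* (0.09) and *Elovl6* (0.08) were also within the scanner error. *Acss2* (0.45) stayed beyond it there.

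The comparison of LuM1 with NM11 cells sets the sublines of different metastatic ability against each other. *Acaca* and *Fads2* were at least 2-fold lower in LuM1 cells and no member was 2-fold higher, where 8.5% of 14411 genes were lower and 11.1% higher. Beyond the scanner error, *Elovl6* was higher in LuM1 cells and 6 members were lower (*Acaca*, *Fads2*, *Scd1*, *Fasn*, *Elovl5* and *Acly*), against 21.4% of all measured genes higher and 28.7% lower. The median log2 ratio of the members was -0.62, beside -0.11 for all measured genes. These calls depended on the scaling. Scaled to *Hprt*, the median of the members was -0.03, *Fasn* (-0.20), *Acly* (-0.01), *Scd1* (-0.22) and *Elovl5* (-0.05) were within the scanner error, and *Acss2* (0.95) and *Scd2* (0.87) were higher in LuM1 cells. *Acaca* and *Fads2* both fell short of 2-fold when scaled to *Hprt* (-0.64 and -0.47) or to the E1A spike-in spots (-0.91 and -0.74) and with the authors' values (-0.82 and -0.65), and *Fads2* also did with no scaling (-0.88) and normexp (-0.93). *Acaca* and *Fads2* were also below both other lines at once by at least 2-fold, as were 4.34% of 13769 genes. No member passed 2-fold against both other lines in another way, where 7.89% of genes were so raised in LuM1 cells, 4.91% raised and 4.99% lowered in Colon26 cells, and 2.85% raised and 2.3% lowered in NM11 cells.

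**Figure D3:**
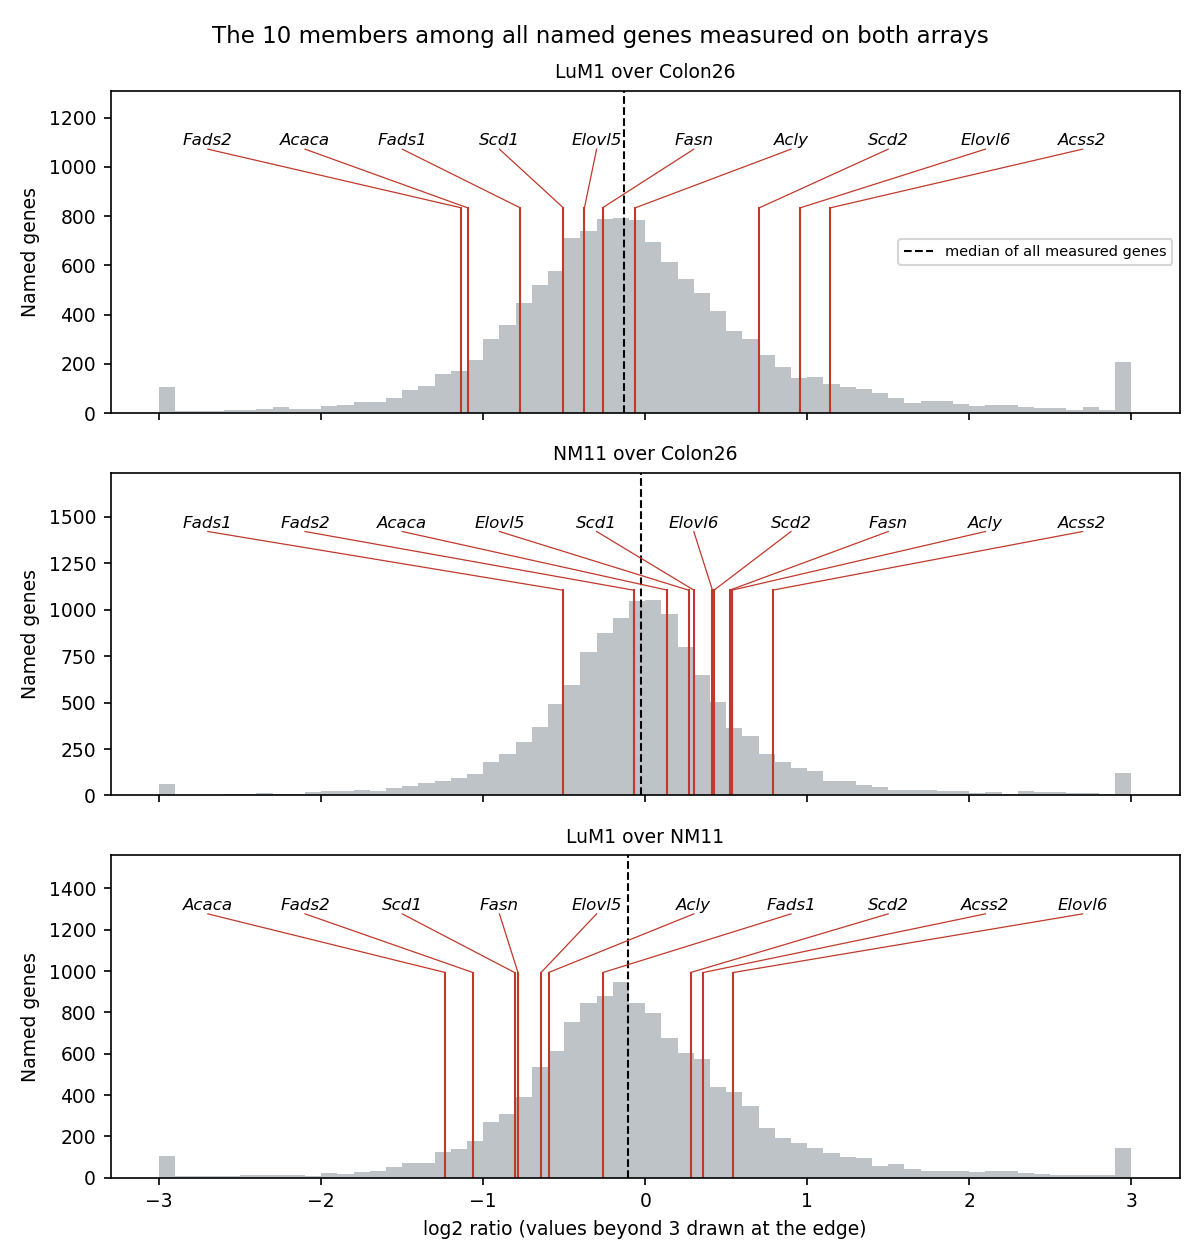
Histograms of the log2 ratios of all named genes measured on both arrays, in 3 comparisons, with the members as red lines and the median of all genes as a dashed line. *Fads2* and *Acaca* lie in the left tail of LuM1 over Colon26 and LuM1 over NM11, whereas all members lie between -0.51 and 0.79 in NM11 over Colon26.

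A difference between 2 members within the same comparison is the same whatever single factor scales an array, though not under quantile normalization, and 7 pairs were compared, chosen with the values known. The log2 ratio of LuM1 over Colon26 was 1.21 higher for *Scd2* than for *Scd1*, 1.33 higher for *Elovl6* than for *Elovl5* and 1.20 higher for *Acss2* than for *Acly*, each beyond a limit of 0.57 from the scanner error. It was also 0.83 higher for *Fasn* and 1.04 higher for *Acly* than for *Acaca*. *Scd2* and *Fads2* were farthest apart, by 1.84. *Fads2* and *Fads1* did not differ beyond the limit (-0.36). In NM11 over Colon26, none of the 7 pairs differed beyond the limit, with differences between 0.12 and 0.50. In LuM1 over NM11, *Scd2* exceeded *Scd1* by 1.09, *Elovl6* exceeded *Elovl5* by 1.19, *Acss2* exceeded *Acly* by 0.95 and *Fads2* was 0.80 below *Fads1*, all beyond the limit, whereas *Fasn* and *Acaca* did not differ beyond it (0.45).

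The regulators of these genes were read next. Of 21 listed regulators, 19 were measured on all arrays, and the remaining *Thrsp* and *Prkaa2*, named here for that, were well above background on none. In LuM1 over Colon26, 1 regulator was at least 2-fold higher and 1 at least 2-fold lower (all genes 13.1% and 11.8%), with a median log2 ratio of 0.17. In NM11 over Colon26, 3 were higher and 1 lower (all genes 8.34% and 7.89%), with a median of -0.15. In LuM1 over NM11, 2 were higher and none lower (all genes 11.1% and 8.5%), with a median of -0.08. *Srebf1*, which encodes the SREBP most tied to fatty acid synthesis, had signals of 9296 in Colon26, 9966 in LuM1 and 10635 in NM11 cells and did not differ between any lines beyond the scanner error. *Srebf2*, which encodes the SREBP most tied to cholesterol synthesis, had signals of 811.8, 1805 and 1913, with log2 ratios of 1.15 for LuM1 and 1.24 for NM11 over Colon26.

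*Scap*, the escort of the SREBPs, had signals of 8753 in Colon26, 4293 in LuM1 and 6298 in NM11 cells and was lowest in LuM1 cells (log2 ratios -1.03 over Colon26 and -0.55 over NM11). *Insig1*, the protein that holds SCAP in the endoplasmic reticulum and an SREBP target itself, had signals of 182.3, 286.1 and 422.4, with log2 ratios over Colon26 of 0.65 in LuM1 and 1.21 in NM11 cells. *Insig2*, of like function, was lowest in NM11 cells, with signals of 1801, 2556 and 1067. *Nr1h3*, which encodes the receptor LXR alpha, was also lowest in NM11 cells, with signals of 576.2, 650.3 and 208.2 and log2 ratios of -1.47 for NM11 over Colon26 and 1.64 for LuM1 over NM11. *Nr1h2*, which encodes LXR beta, gave 0.27 for LuM1 and -0.21 for NM11 over Colon26, both within the scanner error. *Mlxipl*, the carbohydrate response factor ChREBP, gave 0.43 and -0.16. *Mid1ip1*, which promotes the activity of acetyl-CoA carboxylase, had signals of 5238, 9625 and 11539 and log2 ratios of 0.88 and 1.14, so that it was higher in the sublines than in Colon26 cells.

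The enzymes that supply citrate, acetate and NADPH differed in both directions. Of 14 measured in LuM1 and Colon26 cells, 4 were higher and 4 lower in LuM1 cells beyond the scanner error, against 21.9% and 32.2% of all genes. Of 15 genes, 1 was at least 2-fold higher and 1 at least 2-fold lower in each subline than in Colon26 cells. The medians were -0.02 for LuM1 and 0.09 for NM11. Of all genes, 13.1% were higher and 11.8% lower by that fold in LuM1 cells, and 8.34% and 7.89% in NM11 cells. None of the list passed 2-fold between LuM1 and NM11, where 11.1% of all genes were higher and 8.5% lower in LuM1 cells. *Idh1*, the cytosolic isocitrate dehydrogenase that yields NADPH, had signals of 36.1 in Colon26, 157.7 in LuM1 and 189.4 in NM11 cells. The log2 ratios over Colon26 were 2.13 and 2.39, with a Colon26 signal near the detection limit of that array (26.4). The other *Idh1* probe (A_65_P01154) was not well above background in Colon26 cells and was at least 1.36-fold higher in LuM1 and at least 1.20-fold higher in NM11 cells. *Acss1*, the mitochondrial relative of *Acss2*, had a signal of 151.0 in Colon26 cells and was not well above background in LuM1 or NM11 cells, at least 7.50-fold and 7.72-fold lower. Such a bound sets the bright signal against the detection limit of the dim array, taken as its faintest probe that was well above background. The *Acss1* spot lay in a bright patch of the Colon26 array with 36 of 134 neighbours (26.9%) bright there alone.

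Of 10 other acetyl-CoA and malonyl-CoA enzymes, 9 were named on the array and 8 measured, with medians of -0.27 for LuM1 and -0.12 for NM11 over Colon26. *Mecr*, a reductase of mitochondrial fatty acid synthesis, was lowest in LuM1 cells, with signals of 2036 in Colon26, 1263 in LuM1 and 3030 in NM11 cells and a log2 ratio of -1.26 for LuM1 over NM11. *Hlcs*, which attaches biotin to the carboxylases, was lowest in NM11 cells, with signals of 188.3, 145.6 and 62.3 and a log2 ratio of -1.60 for NM11 over Colon26. Neither passed 2-fold between LuM1 and Colon26 cells.

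Of 11 other elongases and enzymes of the elongation cycle, 7 were measured in both LuM1 and Colon26 cells, with a median log2 ratio of -0.63, and 4 were lower and none higher beyond the scanner error, against 32.2% and 21.9% of all measured genes. *Elovl3* had signals of 69.8 in Colon26 and 119.5 in NM11 cells and was not well above background in LuM1 cells, at least 3.47-fold below Colon26 and at least 5.94-fold below NM11 cells. *Hacd1*, a dehydratase of the cycle, had signals of 11241, 5202 and 9980 and was lowest in LuM1 cells (log2 ratio -1.11 over Colon26), as *Acaca* and *Fads2* were. *Hacd4*, another dehydratase, had signals of 654.5, 422.5 and 132.8 and was lowest in NM11 cells (-2.30 over Colon26). The median of this list for NM11 over Colon26 was -0.10. *Elovl2*, *Elovl4* and *Elovl7*, named here for that, were well above background on no array.

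Of 9 other desaturases and partners in electron transfer, 8 were measured, with medians of -0.17 for LuM1 and 0.24 for NM11 over Colon26. *Fads3*, which lies beside *Fads2* and *Fads1* on chromosome 19 in the order *Fads3*, *Fads2*, *Fads1* with no other coding gene between, had signals of 15291 in Colon26, 7215 in LuM1 and 10342 in NM11 cells, and log2 ratios of -1.08 and -0.56. All 3 *Fads* genes of the cluster were thus lower in LuM1 than in Colon26 cells beyond the scanner error, as were 32.2% of all measured genes. *Fads3* and *Fads1* (-0.51) were also lower in NM11 than in Colon26 cells beyond that error, and *Fads2* (-0.07) was within it. *Scd4* had signals of 928.4, 2431 and 2138 and log2 ratios of 1.39 and 1.20, higher in the sublines. *Scd3* had signals of 380.8, 137.1 and 209.1 and a log2 ratio of -1.47 for LuM1 over Colon26 with its brightest of 4 probes, and other probes of it gave 0.64 (A_55_P2052759) and a bound of at least 7.64-fold higher (A_55_P2512897), so the *Scd3* probes did not give 1 direction. The neighbours bright on the Colon26 array alone were 12.4% for *Scd4* and 11.3% for that *Scd3* probe.

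Fatty acids are activated by acyl-CoA synthetases and joined to glycerol by acyltransferases before they enter membranes and stores. Of 13 such genes, 2 were up by 2-fold or more in LuM1 over Colon26 cells and none down (all genes 13.1% and 11.8%), and 3 were higher and 2 lower in NM11 than in Colon26 cells (all genes 8.34% and 7.89%). *Dgat2*, which makes triglyceride, had signals of 103.3 in Colon26, 1179.8 in LuM1 and 1218 in NM11 cells, with log2 ratios of 3.51 and 3.56. *Acsl6* was not well above background in Colon26 cells and had signals of 219.1 in LuM1 and 107.2 in NM11 cells, at least 8.30-fold and 4.06-fold higher. *Acsbg1*, another acyl-CoA synthetase, was lowest in NM11 cells (log2 ratio -1.70 over Colon26). *Agpat1*, an acyltransferase, was highest in Colon26 cells (-0.66 for LuM1 and -1.06 for NM11 over Colon26). *Lpin1*, a phosphatidate phosphatase, was higher in the sublines than in Colon26 cells (0.74 in LuM1 and 1.08 in NM11).

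For reference, 10 genes of cholesterol metabolism, known targets of SREBP2, were read beside the members, and 9 were measured. In LuM1 cells 4 of them were at least 2-fold above Colon26 cells (13.1% of all genes), with a median log2 ratio of 0.79, and in NM11 cells 8 were (8.34% of all genes), with a median of 1.45. No gene of this list was 2-fold lower in either. *Hmgcs1*, which starts the mevalonate pathway, gave log2 ratios of 2.26 and 2.54, *Idi1* gave 2.07 and 2.40, *Fdft1* gave 1.42 and 1.58, and *Cyp51* gave 1.17 and 2.15, in LuM1 and NM11 cells over Colon26. The members had medians of -0.32 and 0.36 in the same comparisons.

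**Figure D4:**
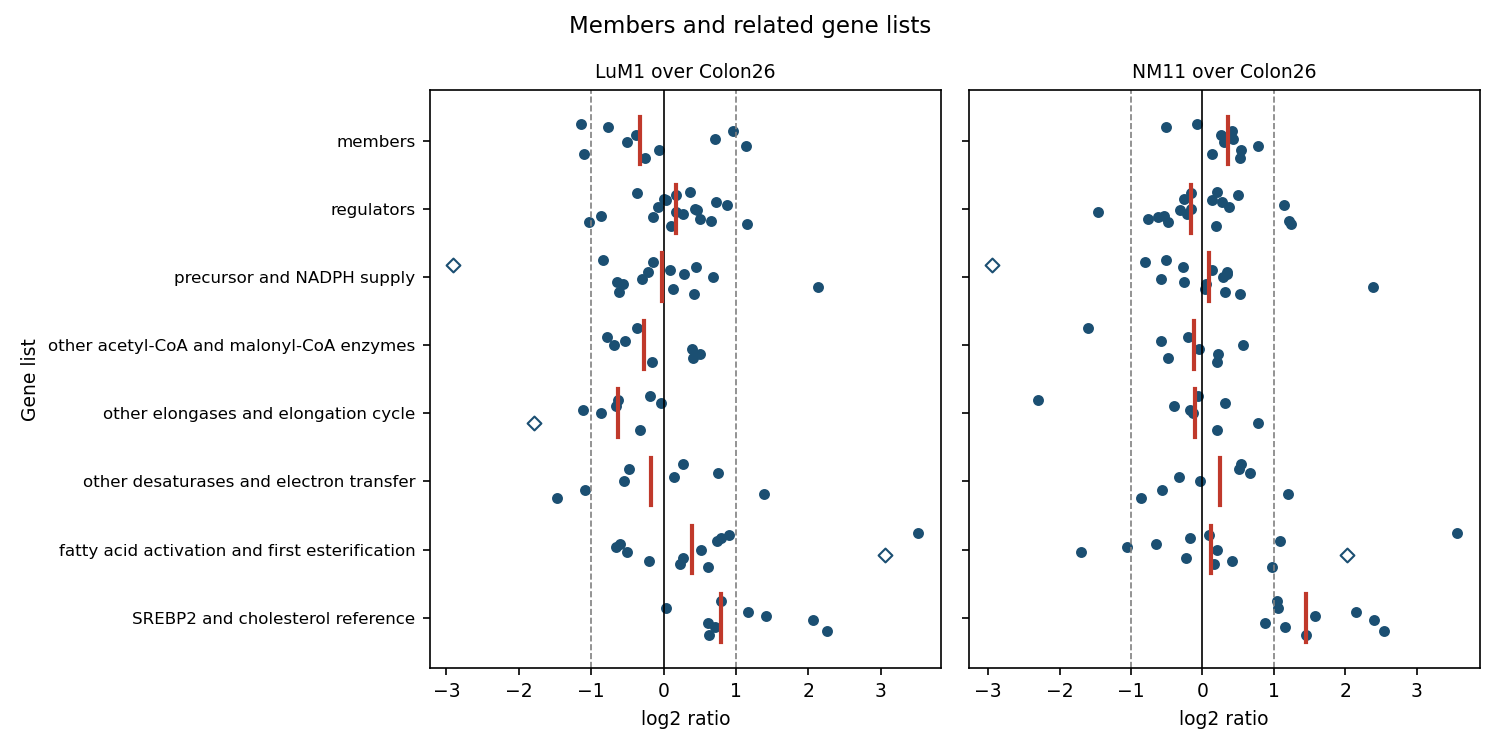
Log2 ratios of LuM1 over Colon26 and NM11 over Colon26 for the members and 7 related gene lists, 1 point per gene, with open diamonds for bounds, a red bar at the median of the measured genes and dashed lines at 2-fold. The members spread over both sides of 0 in LuM1 over Colon26, with a median of -0.32, whereas the cholesterol genes have medians of 0.79 and 1.45.

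The size of these ratios moved with the scaling of the arrays. Over 11 alternative settings and the one used here, the log2 ratio of LuM1 over Colon26 lay between -1.27 and -0.65 for *Acaca*, between -1.30 and -0.69 for *Fads2*, between 0.88 and 1.59 for *Acss2*, between 0.87 and 1.40 for *Elovl6* and between 0.70 and 1.15 for *Scd2*. The sign was kept under all of these for 7 of the 10 members, the exceptions being *Fasn*, *Acly* and *Elovl5*, which lay within the scanner error. For LuM1 over NM11 the sign was kept for 9 of 10, all but *Fads1*, and for NM11 over Colon26 for 5 of 10 (*Fasn*, *Acly*, *Acss2*, *Fads1* and *Fads2*). Some of the 11 alternatives could not alter a sign, so fewer of them bear on these counts. Changing how faint spots were screened left each member's ratio as it was, because its brightest probe was well above background on every array. Choosing the probe by its LuM1 signal also changed no member, since the same probe was brightest there. The ratio of NM11 over Colon26 was smallest when scaled to *Hprt*, at 0.03 for *Fasn* and 0.05 for *Acly*.

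**Figure D5:**
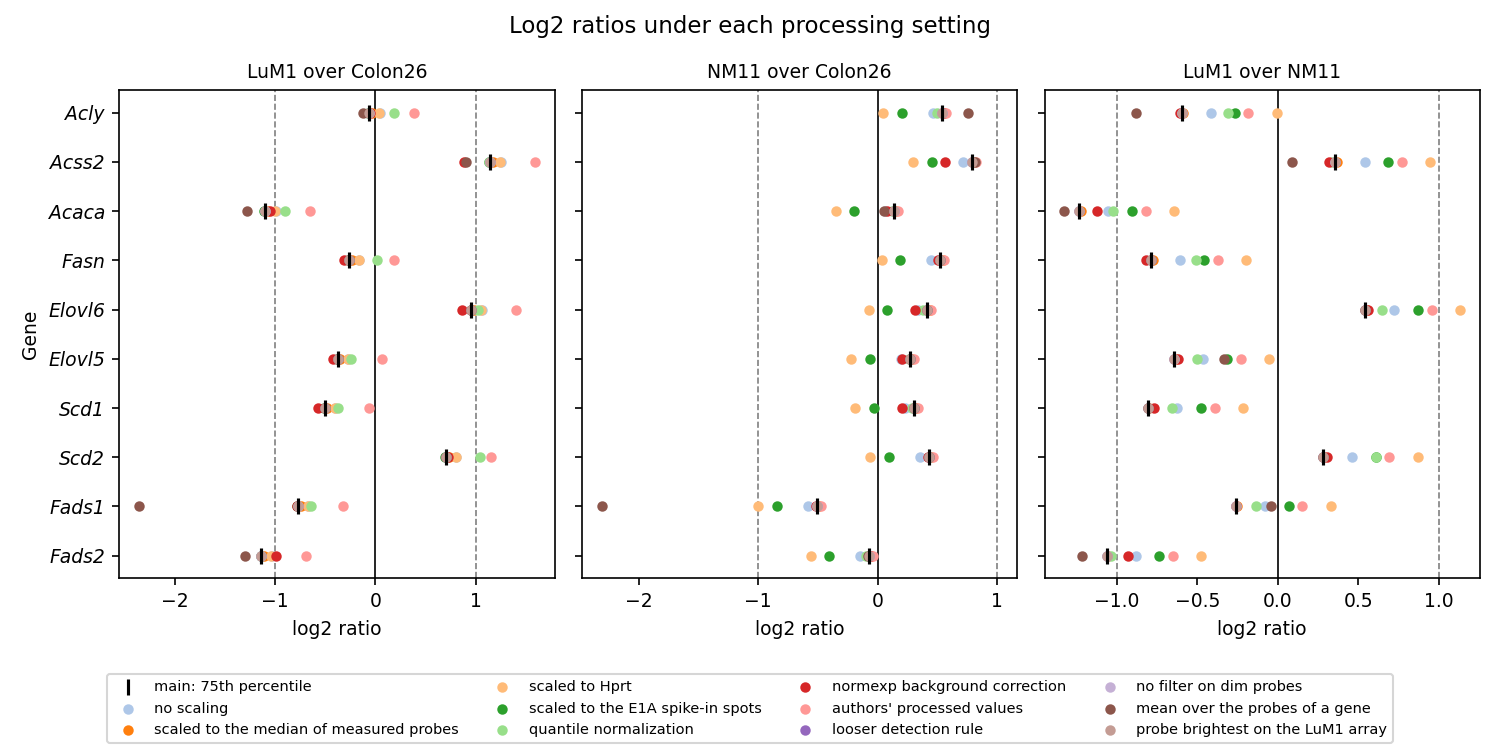
Log2 ratio of each member under the setting used here (black bar) and 11 alternatives (coloured points) in 3 comparisons, with dashed lines at 2-fold. In LuM1 over Colon26 *Acaca* and *Fads2* stay left of 0 and *Acss2*, *Elovl6* and *Scd2* stay right of it. In NM11 over Colon26 *Scd2*, *Elovl6*, *Acaca*, *Scd1* and *Elovl5* cross 0 when scaled to *Hprt*. *Acaca*, *Scd1* and *Elovl5* also cross it when scaled to the E1A spike-in spots.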

How the data were processed

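Cells of 3 murine lines were compared with 1 single-colour Agilent array each, grouped by the line named in the labels. Per the file headers and the submitters' processing notes, the authors deposited the intensity of each spot from Agilent Feature Extraction 11.5.1.1, background-subtracted and detrended on a linear scale with no scaling between arrays. Other columns the authors deposited hold flags for outlier, saturated and well-above-background spots. The authors also deposited a table of processed intensity values, in which each array carries a constant multiplier of the scanner values (Colon26 0.654, LuM1 0.829, NM11 0.706). How these factors were chosen is not given in the sources used here.

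Control spots and outlier spots (137, 74 and 99 on the Colon26, LuM1 and NM11 arrays) were left out and repeated probes were averaged. The 75th percentile before scaling was 581.1, 625.1 and 551.5 in the same order. Probes were named through RefSeq accessions of GRCm38.p6 (58.3% of probes, 32989). The array was designed on an older build, so probe coordinates are not given. A probe not well above background on 1 array gave only a bound, taken against the faintest well-above-background signal of that array (26.4, 20.1 and 19.6) or against its own signal if that was brighter. The spread of repeated spots was a median SD of 0.035 to 0.040 (log2). *Hprt*, a housekeeping gene and internal control of the study, served for 1 alternative scaling. Bright patches on the Colon26 array were sought within 8 rows and 4 columns of a spot, and 10% of neighbours bright there alone marked a patch.

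No test was run, since there was 1 array per line. The members and lists were chosen with earlier results of these data known. All members were named, and of each other list the genes at least 2-fold apart in any comparison (at most 6), plus 7 regulators whatever their values (*Srebf1*, *Srebf2*, *Insig1*, *Nr1h2*, *Nr1h3*, *Mlxipl* and *Scap*). Of the cholesterol list, 2 genes that this rule names are not reported here. Alternatives covered scaling, background correction (normexp with an offset of 50), the authors' values, the detection rule, the choice of probe and the fold threshold. The script was tested on simulated data. Python 3.11.15 with numpy 2.4.6, pandas 2.3.3 and matplotlib 3.10.9 and R 4.3.3 with limma 3.58.1 (for normexp) were used.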

Additional observations from a re-analysis of the deposited data

How the results depend on the processing

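No paired analysis was possible because each line had 1 array, and for the same reason no array could be left out. Of the members at least 2-fold apart, a 4-fold threshold left 0 higher and 0 lower in LuM1 over Colon26 and 0 lower in LuM1 over NM11. A 1.5-fold threshold gave 3 higher in LuM1 over Colon26, 1 higher in NM11 over Colon26 and 6 lower in LuM1 over NM11. Without scaling, 2 were higher and 1 lower in LuM1 over Colon26 and 1 was lower in LuM1 over NM11, and the median of all genes shifted by 0.11 and 0.18. With the arrays set to *Hprt*, the shift was 0.10, -0.49 and 0.59 in LuM1 over Colon26, NM11 over Colon26 and LuM1 over NM11. There, 2 members were higher and 1 lower in LuM1 over Colon26. In NM11 over Colon26 the median of the members reversed to -0.13, *Scd2* to -0.063 and *Elovl6* to -0.073, and in LuM1 over NM11 the median was -0.031 with 1 higher and 0 lower. Scaling to the E1A spike-in spots gave medians of 0.023 in NM11 over Colon26 and -0.29 in LuM1 over NM11, with 0 lower in the latter, where all genes shifted by -0.34 and 0.33. Quantile normalization gave medians of -0.11 in LuM1 over Colon26, with 3 higher and 1 lower, and -0.40 in LuM1 over NM11. Background correction by normexp, run on the median brightness of each spot, gave 0 higher and 1 lower in LuM1 over Colon26 and 1 lower in LuM1 over NM11. The authors' processed values shifted all genes by 0.45 in LuM1 over Colon26 and 0.41 in LuM1 over NM11. There the median of the members reversed to 0.13 with 3 higher and 0 lower in LuM1 over Colon26, and was -0.21 with 0 lower in LuM1 over NM11. Averaging all probes of each gene gave 0 higher and 3 lower in LuM1 over Colon26, with *Fads1* at -2.35, and 1 lower in NM11 over Colon26 (*Fads1*). The same average without the probes in bright patches of the Colon26 array, chosen after seeing the data, gave 0 higher and 2 lower in LuM1 over Colon26, with *Fads1* at -0.77. The shifts of all genes follow from the construction of the scalings, and the causes of the other changes were not tested.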
